A study of Mus musculus with 8 samples.

Results

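Aminoacyl-tRNA synthetases are the enzymes that join each amino acid to its transfer RNA, the step that matches an amino acid to the genetic code before the ribosome uses it. Mouse cells make a cytosolic set for translation of nuclear mRNAs and a largely separate set, also encoded in the nucleus, that is imported into mitochondria for translation of the mitochondrial genome. The mitochondrial genes carry names that end in 2. Kars and Gars supply both compartments from the same gene, and mitochondrial glutaminyl-tRNA is made by amidation of glutamyl-tRNA, so these amino acids have no partner gene of that kind. The 36 synthetases examined here were chosen by name among the 12823 rows of the count table. They comprise 20 cytosolic and 16 mitochondrial enzymes, and all 36 were in the table and passed the filter on low counts.

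The RNA came from GFP+ bone marrow cells of mouse acute myeloid leukemia (AML) driven by the MLL-AF9 fusion gene, which had been introduced into bone marrow progenitors together with GFP and transplanted into sublethally irradiated recipients. The 4 new AML libraries were made from leukemia cells collected from those first recipients. The 4 aggressive AML libraries were made from cells that had been passed through 5 serial transplantations, and the comparison asks what differed after those passages. According to the study, the recipients of these passages were not irradiated, so irradiation of the recipients also differed between the groups. The labels name biological replicates without saying whether each was a separate mouse, so p-values measure the spread between these samples.

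Library totals ranged from 7805544 to 9697777 counts, and the 36 synthetases had between 81 and 4997 counts in a library, so none was near the limit of detection. All 8 markers of myeloid leukemia cells, Ptprc, Itgam, Kit, Mpo, Hoxa9, Meis1, Cd34 and Fcgr3, were detected. The defining markers of other lymphocytes, including Cd3e, Cd4, Cd8a, Ms4a1, Pax5 and Ncr1, were not among the deposited rows. A summed level of 251.0 to 287.0 CPM (counts scaled to a common library size) for 4 Y-linked genes was found in the new AML libraries, against 0 counts in every aggressive AML library, which allows up to 0.341 to 0.389 CPM per gene. Xist, the RNA that silences an X chromosome in female cells, was at 3.13 ± 1.36 CPM in new AML and 0.416 ± 0.217 CPM (SD, n = 4) in aggressive AML. The labels derive the aggressive cells from the GFP+ cells left over from the new leukemia. The study describes the mice of this RNA experiment as male. Its text does not give the sex of the mice whose marrow progenitors were transduced. Effects of the passages, of irradiation of the recipients, of a loss of the Y chromosome and of a different origin of the cells cannot be told apart. In bulk RNA, fewer cells of a type and less RNA per cell cannot be told apart either.

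Levels of different enzymes were compared per kilobase of exon, with exon lengths from the GENCODE annotation. The cytosolic enzymes ranged from 11.2 to 105.9 CPM per kilobase with a median of 47.1, and the mitochondrial enzymes from 2.31 to 68.6 with a median of 10.3. Vars (valine) was highest at 104.8 ± 9.84 (SD, n = 4) CPM per kilobase in new AML and 106.9 ± 6.48 (SD, n = 4) in aggressive AML. Kars (lysine) and Farsa, the alpha subunit of the phenylalanine enzyme, followed at 100.1 and 99.3 CPM per kilobase over all 8 libraries. The order of these 3 differed between the groups, with Vars first in new AML and Kars first in aggressive AML.

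Only 1 mitochondrial enzyme, Lars2 (leucine), exceeded the cytosolic median, with 68.6 CPM per kilobase, and it ranked seventh of all 36. The next mitochondrial enzymes were Cars2 (cysteine) at 22.0 and Rars2 (arginine) at 19.6 CPM per kilobase. At the low end, Wars2 (tryptophan) had 3.44, Nars2 (asparagine) 3.36 and Mars2 (methionine) 2.31 CPM per kilobase. The value of Mars2 depends on the annotation, which gives this gene 11294 exonic bases in GENCODE and 2882 bases in RefSeq. Among cytosolic enzymes Cars (cysteine) was lowest, at 11.2 CPM per kilobase, which was below 7 of the mitochondrial enzymes.

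The factor ATF4, which is translated when transfer RNAs lack amino acids, is known to activate several cytosolic synthetase genes through a C/EBP-ATF composite element. The 8 letters TGATGNAA were therefore searched on both strands of the RefSeq promoters, which span 250 bases before to 50 after the start of transcription on GRCm38.p6. They were present in 5 of the 13 cytosolic synthetases with a promoter entry, in 0 of the 14 mitochondrial synthetases with one, and in 3.97% of all 32851 promoters. The windows below show that match in 4 of the 5 genes, in capitals within 30 bases, read 5′ to 3′ on the strand that carries it. They are shown because these are synthetase genes whose promoters hold the letters of the element.
Gars (glycine), chr6:55037960-55037989: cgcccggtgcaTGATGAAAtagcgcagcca
Iars (isoleucine), chr13:49682126-49682155: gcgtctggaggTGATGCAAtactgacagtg
Tars (threonine), chr15:11399655-11399684: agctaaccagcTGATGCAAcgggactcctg
Yars (tyrosine), chr4:129189895-129189924: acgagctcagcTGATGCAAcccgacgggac
The matches in Gars, Iars and Tars lie on the strand opposite to the gene, and that in Yars on the strand of the gene. Positions are counted along the gene, from the end of the match that comes first in that direction. In Gars the match begins 30 bases before the start of transcription and in Tars 15 bases before it. In Iars it begins 7 bases and in Yars 3 bases after the start. Each start is that of the promoter entry, which for Yars lies downstream of the first base of the RefSeq gene, chr4:129189734. A match of letters is a description and not a measured binding site. Cars, Hars, Lars, Nars, Rars, Vars, Wars, Hars2 and Pars2 had no promoter entry.

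Among the cytosolic synthetases, mRNAs of Lars, Kars, Nars and Qars were higher in aggressive AML by 1.19 to 1.29 fold, and none was lower. These 4 of 20 genes passed an adjusted p of 0.05 in the quasi-likelihood test of edgeR, where 8.15% of the 12494 genes tested were called higher and 18.4% were called in either direction. All 20 fitted differences were above 0, between 0.02 and 0.37 on the log2 scale with a median of 0.13, while 50.1% of all genes tested lay above 0 and their median was 0.00044. The median size of the difference, regardless of sign, was 0.13 for these enzymes and 0.19 for all genes, so the shared direction went with small differences. All 20 stayed above 0 under every alternative that kept the 8 libraries, and 16 to 20 did when 1 library was left out. The count of 4 fell to 1 without new AML replicate 2 and to 2 without aggressive AML replicate 1 or 2.

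**Figure D1:**
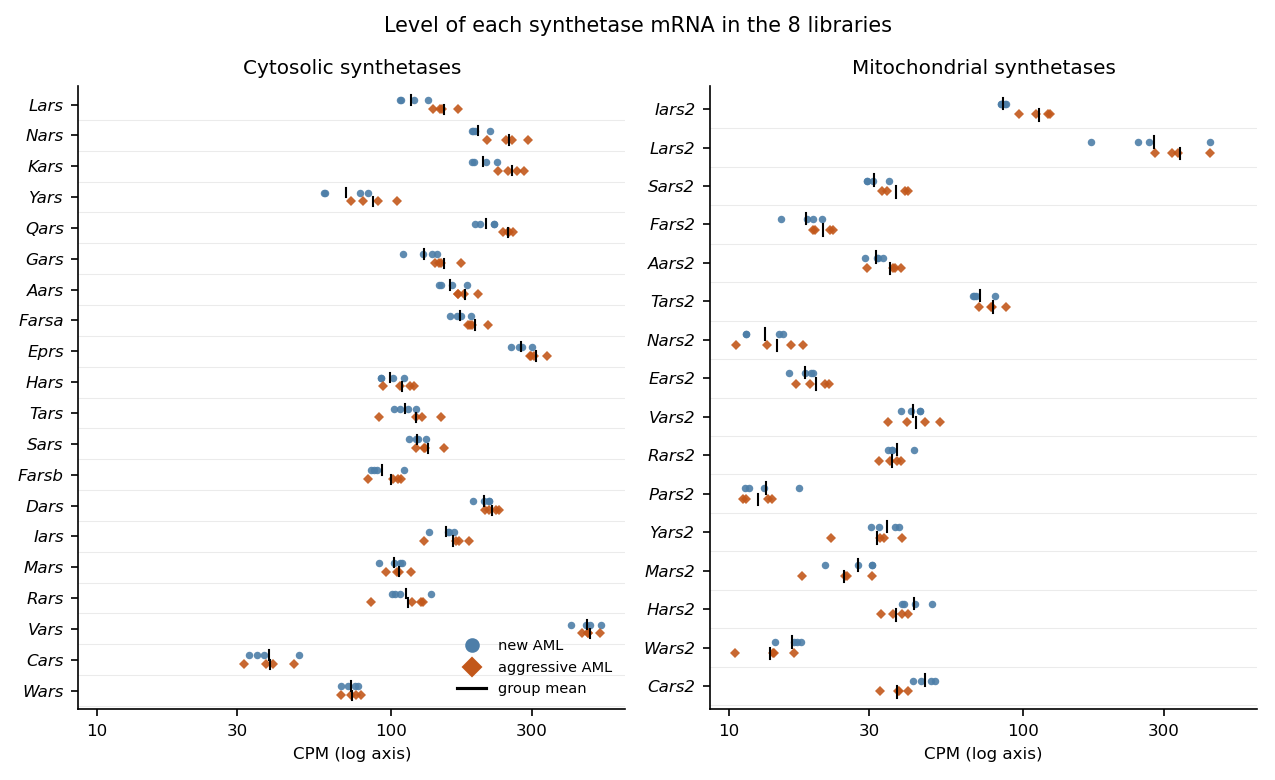
Level of each synthetase mRNA in CPM on a log axis, by library, with 20 cytosolic enzymes on the left and 16 mitochondrial enzymes on the right, ordered by fold change. Blue circles are the 4 new AML libraries, orange diamonds the 4 aggressive AML libraries and black ticks the group means. Lars, Kars, Qars, Iars2 and Cars2 have groups that do not overlap, which holds for 21.8% of all genes tested. Lars2 spreads most widely among the new AML libraries.

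Lars charges leucine and is also known as a leucine sensor upstream of mTORC1. It had 107.0, 107.5, 133.1 and 119.1 CPM in new AML and 148.1, 168.1, 138.6 and 146.5 CPM in aggressive AML. The lowest aggressive library exceeded the highest new one. Lars differed by 0.37 ± 0.090 (SE) on the log2 scale with an adjusted p of 0.0106 by edgeR, and it stayed past the threshold in all 17 alternatives. The gene lies at chr18:42202298-42262237 on the minus strand of GRCm38.p6.

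Kars charges lysine in the cytosol and, through another splice form, in mitochondria. It had 210.0, 191.3, 228.7 and 188.4 CPM in new AML and 281.7, 249.0, 266.4 and 230.4 CPM in aggressive AML. The groups did not overlap, although the highest new and the lowest aggressive library were close. This gave a log2 difference of 0.33 ± 0.085 (SE) with an adjusted p of 0.0143 by edgeR. The adjusted p of Kars was 0.0604 by edgeR without new AML replicate 2, 0.0502 without new AML replicate 4 and 0.0503 without aggressive AML replicate 1.

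Nars charges asparagine. Its level was 191.6, 188.5, 216.5 and 189.2 CPM in new AML and 255.8, 290.0, 210.8 and 244.3 CPM in aggressive AML. New AML replicate 3 lay above aggressive AML replicate 3, so the groups overlapped. Nars differed by 0.35 ± 0.092 (SE) on the log2 scale with an adjusted p of 0.0158 by edgeR, and it was not past the threshold without new AML replicate 2 (0.0577) or aggressive AML replicate 2 (0.0586).

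Qars charges glutamine. It had 192.9, 200.3, 223.2 and 223.9 CPM in new AML and 257.9, 251.4, 239.0 and 248.0 CPM in aggressive AML, with no overlap. The log2 difference was 0.25 ± 0.073 (SE) with an adjusted p of 0.0291 by edgeR. Its adjusted p lay between 0.0665 and 0.107 by edgeR without new AML replicate 1 or 2 or aggressive AML replicate 1 or 2, and its log2 fold change there was 0.21 to 0.24. In all, 3 of the 20 cytosolic genes had groups that did not overlap, each higher in aggressive AML. Of all genes tested, 9.76% had no overlap and were higher, and 21.8% had no overlap in either direction.

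The other 16 cytosolic enzymes did not pass the threshold. Of these, 3 had an unadjusted p under 0.05, so that 7 of 20 did in all, against 32.6% of all genes tested. Yars (tyrosine) had the largest fitted difference of them, 0.31 with a 95% interval of 0.04 to 0.59 and an adjusted p of 0.108 by edgeR. Gars (glycine) differed by 0.23 (0.03 to 0.43, adjusted p = 0.109), and Eprs, the fused enzyme for glutamate and proline, by 0.16 (0.01 to 0.32, adjusted p = 0.139). Without aggressive AML replicate 3, Yars passed with a log2 difference of 0.39 and an adjusted p of 0.0461 by edgeR.

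Aars (alanine) and Farsa differed by 0.17 and 0.16, and Hars (histidine), Tars (threonine), Sars (serine), Farsb (the beta subunit for phenylalanine), Dars (aspartate) and Iars (isoleucine) by 0.14 to 0.09. The smallest values were those of Mars (methionine) at 0.05, Rars (arginine) and Vars at 0.03, and Cars and Wars (tryptophan) at 0.02. The 95% interval of Vars was -0.14 to 0.20 and that of Wars -0.16 to 0.20, so differences of up to about that size would not have been detected here. Cars, Mars, Rars, Vars and Wars each changed sign when some single library was left out. Aars overlaps Ddx19b over 3974 bases in RefSeq, and Ddx19b was called higher (0.37, adjusted p = 0.0291 by edgeR). The part of reads from Ddx19b in the level of Aars was not tested. None of the 5 genes with the 8 promoter letters was among those called. Of the called genes, Kars and Qars had promoter entries without those letters, and Lars and Nars had no promoter entry. The part of ATF4 in the synthetase levels was not tested.

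**Figure D2:**
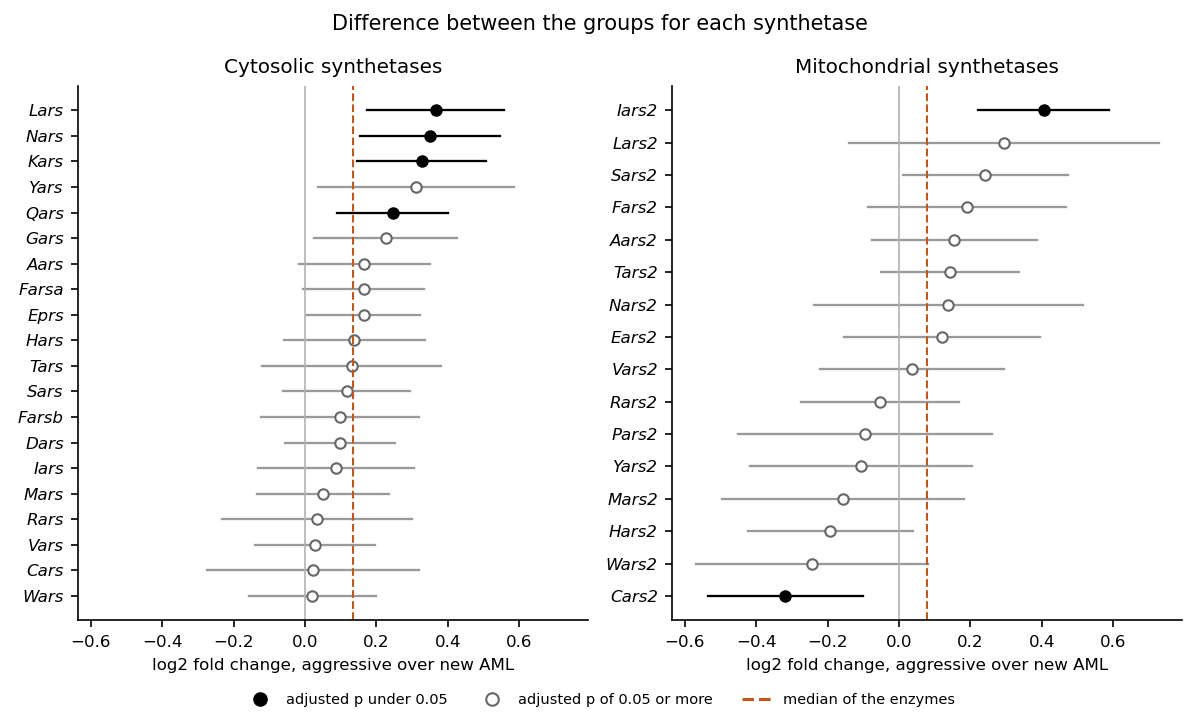
Fitted log2 fold change of each synthetase, aggressive over new AML (n = 4 each), with its 95% interval, for the 20 cytosolic and 16 mitochondrial enzymes. Filled points have an adjusted p under 0.05 and open points do not, and the dashed line is the median of the enzymes shown. Every cytosolic point lies to the right of 0, whereas the mitochondrial points lie on both sides, from -0.32 for Cars2 to 0.40 for Iars2.

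The mitochondrial synthetases did not share a direction. Iars2 (isoleucine) was higher in aggressive AML by 1.32 fold and Cars2 (cysteine) was lower, at 0.802 of its level in new AML, while the other 14 of 16 did not pass the threshold. Fitted differences were above 0 for 9 enzymes and below 0 for 7, with a median of 0.08. Taking both compartments, 6 of 36 synthetases were called (16.7%), which is near the 18.4% of all genes. The difference between compartments was not tested, and both medians are descriptions.

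Iars2 had 87.5, 84.2, 86.7 and 83.9 CPM in new AML and 123.7, 121.7, 110.7 and 97.1 CPM in aggressive AML. The new libraries lay close together and every aggressive library was above them. Iars2 differed by 0.40 ± 0.086 (SE) on the log2 scale with an adjusted p of 0.00433 by edgeR, and Iars2 was past the threshold in all 17 alternatives. Iars2, at chr1:185286642-185329419, ends within its neighbour Rab3gap2 on the opposite strand, and their GENCODE transcripts share 2034 bases. Rab3gap2 rose from 155.6 to 180.7 CPM, a log2 difference of 0.22 with an adjusted p of 0.0450 by edgeR. Because the strand setting of the counting was not given in the sources used here, reads of these genes in the shared stretch cannot be told apart.

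Cars2 had 42.2, 48.6, 50.1 and 44.9 CPM in new AML and 40.7, 37.8, 32.7 and 37.7 CPM in aggressive AML. The groups did not overlap, but the nearest libraries were only slightly apart. The log2 difference was -0.32 ± 0.10 (SE) with an adjusted p of 0.0420 by edgeR. Its adjusted p was 0.0680 by edgeR with the replicate number as a block. It passed the threshold without new AML replicate 1 or aggressive AML replicate 1, whereas without any of the other 6 libraries its adjusted p was 0.0667 to 0.119 by edgeR. Cars, its cytosolic partner, had a log2 difference of 0.02 with a 95% interval of -0.27 to 0.32.

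Of the mitochondrial enzymes that were not called, Sars2 (serine) had an unadjusted p under 0.05, with a log2 difference of 0.24, a 95% interval of 0.01 to 0.47 and an adjusted p of 0.133 by edgeR. Fars2 (phenylalanine), Aars2 (alanine), Tars2 (threonine), Nars2 (asparagine), Ears2 (glutamate) and Vars2 (valine) had differences between 0.19 and 0.04. Wars2 (tryptophan), Hars2 (histidine), Mars2 (methionine), Yars2 (tyrosine), Pars2 (proline) and Rars2 (arginine) had differences between -0.24 and -0.05. Their standard errors were 0.090 to 0.18, wider than those of most cytosolic enzymes, which have more counts.

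Lars2 varied more between the new AML replicates than any other synthetase. It had 170.5, 246.4, 267.1 and 433.1 CPM in new AML and 334.7, 281.0, 321.2 and 432.1 CPM in aggressive AML. The values of the groups ran into each other, and the fourth library of each group was the highest. The log2 difference was 0.29 with a 95% interval of -0.14 to 0.73 and an adjusted p of 0.340 by edgeR. It was 0.59 with an adjusted p of 0.0225 by edgeR without new AML replicate 4, and 0.12 with an adjusted p of 0.707 without new AML replicate 1.

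Several non-coding RNAs, which were chosen after their values were seen, had the same lowest and highest libraries. Gm15564, a non-coding gene on another chromosome, had 19.1, 35.3, 41.6 and 71.7 CPM in new AML and 44.5, 37.0, 40.1 and 60.6 CPM in aggressive AML. Rn7s1, a copy of the RNA of the signal recognition particle, had 10.4, 23.5, 28.4 and 53.4 CPM and then 40.0, 33.2, 52.6 and 60.4 CPM. As for Lars2, new AML replicate 1 was the lowest library and replicate 4 was the highest of each group, while the order of the other aggressive libraries differed for Rn7s1. For Lars, the cytosolic leucine enzyme, replicate 4 was the highest of neither group. Bases 3278 to 3349 of the 3894-base Lars2 transcript in GENCODE share 72 bases with a Gm15564 transcript at 98.6% identity. The part of shared sequence or of these RNAs in the level of Lars2 was not tested.

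**Figure D3:**
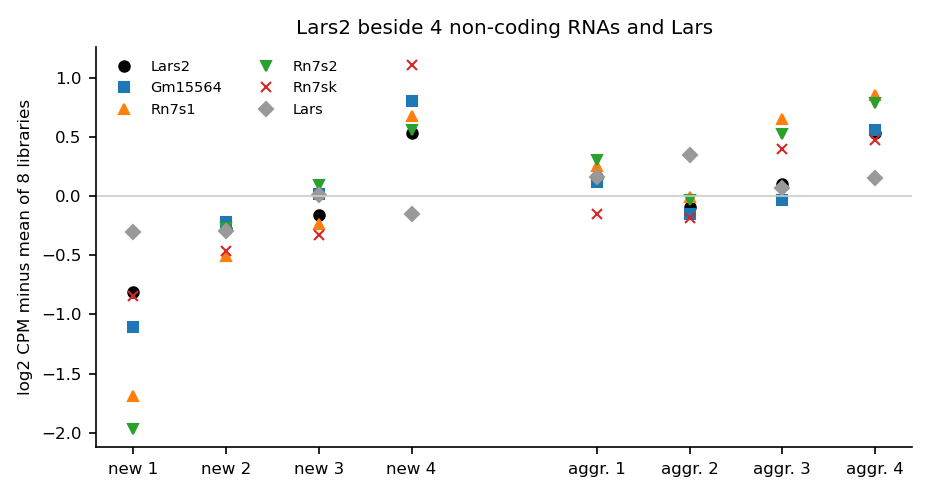
Log2 CPM minus the mean of the 8 libraries for Lars2 (black), the non-coding RNAs Gm15564, Rn7s1, Rn7s2 and Rn7sk (colours) and Lars (grey), by library. New AML replicate 1 is lowest and replicate 4 is highest in new AML for Lars2 and for the 4 non-coding RNAs, while Lars stays within a narrower range.

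For 13 amino acids the cytosolic and the mitochondrial enzyme could be compared within a library, so that depth cancels. The log2 ratio of cytosolic to mitochondrial enzyme was higher on average in aggressive AML for 10 amino acids and lower for 3, with a median shift of 0.08. The groups overlapped for all 13. The largest rise in the ratio was that of tyrosine. The ratio of Yars to Yars2 was 1.13, 0.87, 1.08 and 0.97 on the log2 scale in new AML and 1.46, 1.63, 1.71 and 1.04 in aggressive AML, so 3 of the 4 aggressive libraries lay above every new one.

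For cysteine the mean ratio moved from -0.29 ± 0.22 (SD, n = 4) in new AML to 0.05 ± 0.18 (SD, n = 4) in aggressive AML. In new AML every library had more reads of Cars2 than of Cars, and in aggressive AML 2 of 4 libraries did. Isoleucine moved the other way, with a ratio of Iars to Iars2 of 0.83 ± 0.11 (SD, n = 4) in new AML and 0.51 ± 0.23 (SD, n = 4) in aggressive AML. For leucine both enzymes had higher means in aggressive AML, and the ratio was -1.18 ± 0.50 and -1.17 ± 0.34 (SD, n = 4 each), the only amino acid with more mitochondrial than cytosolic reads in both groups. No test was run on these ratios. The count of 10 was 8 to 10 when 1 library was left out.

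**Figure D4:**
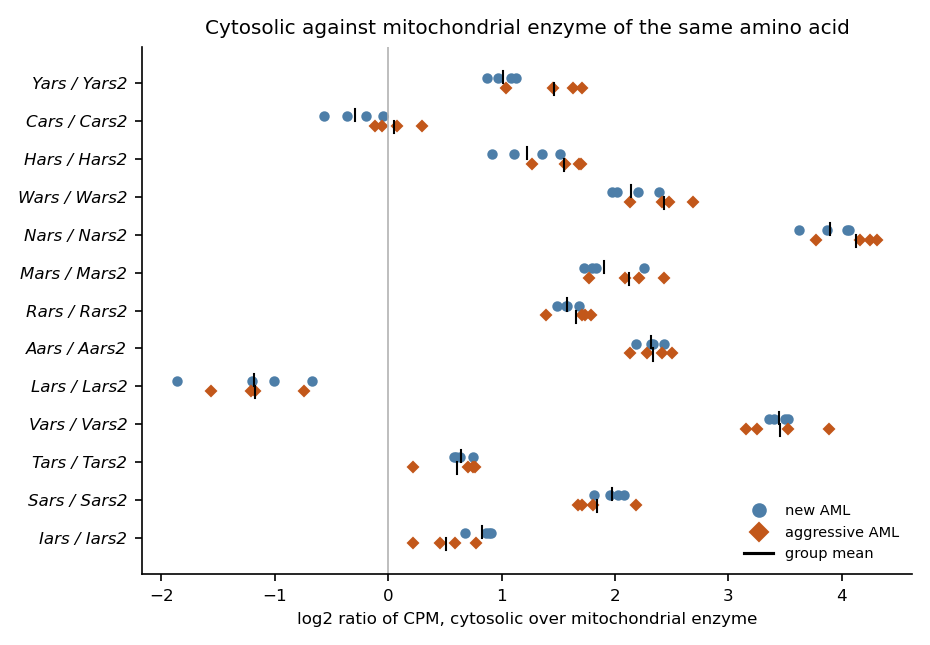
Log2 ratio of CPM of the cytosolic over the mitochondrial enzyme for 13 amino acids, by library, with blue circles for new AML, orange diamonds for aggressive AML and black ticks for group means (n = 4 each). Group means are higher in aggressive AML for 10 amino acids and lower for isoleucine, serine and threonine, and the groups overlap for every amino acid.

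In the cytosol, 8 synthetases are held with 3 scaffold proteins in the multisynthetase complex. Lars, Kars and Qars are among these 8 enzymes, and Nars is among the 12 cytosolic enzymes outside the complex. The median log2 difference was 0.13 for the enzymes in the complex and 0.13 for those outside it. The scaffold proteins Aimp1, Aimp2 and Eef1e1 had differences of 0.19, 0.11 and 0.19. The threshold was passed by 0 of the 3, where 18.4% of all genes were called in either direction.

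The synthetases also fall into a pair of unrelated structural classes, and Eprs, which carries an enzyme of each, was left out of this comparison. Cytosolic class I enzymes had a median difference of 0.05 (9 genes, 2 higher) and cytosolic class II enzymes 0.15 (10 genes, 2 higher). In mitochondria the medians were -0.05 for class I (9 genes, 1 higher and 1 lower) and 0.14 for class II (7 genes, none called). Of all genes tested, 8.15% were called higher and 10.2% lower. The class II enzymes included 5 of 7 mitochondrial genes with a difference above 0, and the class I enzymes 4 of 9.

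Genes that act before and after the synthetases were counted from lists written by function. Of the 4 genes for amidation and formylation of mitochondrial transfer RNA (Qrsl1, Gatb, Gatc and Mtfmt), 0 were called. Of 6 further synthetases and editing or selenocysteine enzymes, 0 were called, with Dtd1, which removes D-amino acids from transfer RNA, at a difference of 0.24 with no overlap between groups and an adjusted p of 0.107 by edgeR. Of 11 genes for maturation and export of transfer RNA, 1 was lower and the other 10 were not called. It was Tsen34, a subunit of the endonuclease that removes tRNA introns, which fell from 48.2 to 34.7 CPM (log2 difference -0.47, adjusted p = 0.0105 by edgeR). Of all genes tested, 10.2% were called lower, 18.4% were called in either direction and 21.8% had no overlap between groups.

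Of 9 genes that deliver charged transfer RNA to the ribosome or move it along, 3 were higher in aggressive AML, all of them cytosolic, against 8.15% of all genes. Eef1b2, an exchange factor subunit, rose from 673.8 to 836.8 CPM (log2 difference 0.31, adjusted p = 0.00682 by edgeR). Eef1a1, which carries aminoacyl-tRNA to the ribosome, rose from 8833 to 10597 CPM (0.26, adjusted p = 0.0187). Eef2, the translocation factor, had a difference of 0.21 with an adjusted p of 0.0489. In the limma test on log2(CPM + 1) the adjusted p was 0.0627 for Eef1a1 and 0.0885 for Eef2. The 4 mitochondrial factors Tufm, Tsfm, Gfm1 and Gfm2 were not called, with differences of -0.20 to 0.07. The count of 3 was 1 without new AML replicate 2 or 4 or aggressive AML replicate 1 or 3.

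Uncharged transfer RNA activates the kinase GCN2 (Eif2ak4), which phosphorylates the initiation factor eIF2 and so allows translation of ATF4. The list of 12 genes used for this response also holds the other kinases of eIF2, which answer other signals. Of these 12 genes, Atf4 was higher and Eif2ak1 and Eif2ak2 were lower in aggressive AML, where 18.4% of all genes were called in either direction. Atf4 had 250.0, 224.5, 270.1 and 203.9 CPM in new AML and 449.3, 423.2, 306.5 and 274.5 CPM in aggressive AML, with no overlap but a wide spread among the aggressive libraries. Its log2 difference was 0.62 ± 0.14 (SE) with an adjusted p of 0.00586 by edgeR, and it passed in all alternatives.

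Eif2ak1, the heme-regulated kinase of eIF2, fell from 81.7 to 66.0 CPM (-0.31, adjusted p = 0.0132 by edgeR), and Eif2ak2, the kinase activated by double-stranded RNA and induced by interferon, from 73.5 to 51.6 CPM (-0.51, adjusted p = 0.0100 by edgeR). Eif2ak4 itself had a difference of -0.07 and an adjusted p of 0.645 by edgeR.

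Of 26 known ATF4 targets, most of them in amino acid synthesis and transport, 23 were in the table and 20 were tested. In aggressive AML 8 of these 20 were higher, none was lower, and the median log2 difference was 0.36, against 8.15% of all genes called higher. Pycr1 (proline synthesis) rose from 32.3 to 48.9 CPM (log2 difference 0.60), Eif4ebp1 (a brake on initiation) from 48.3 to 71.0 (0.55) and Psat1 (serine synthesis) from 330.3 to 435.8 (0.40). Asns (asparagine synthesis) rose from 26.0 to 52.1 CPM (1.00), Slc3a2 (a shared subunit of amino acid transporters) from 103.9 to 149.1 (0.52) and Slc7a1 (a transporter of cationic amino acids) from 156.1 to 209.4 (0.42). Their adjusted p-values were 0.000333 to 0.0160 by edgeR. Asns had 26.1, 21.6, 35.1 and 21.3 CPM in new AML and 44.2, 87.3, 37.8 and 38.9 CPM in aggressive AML. Its log2 difference was 0.63 to 1.18 when 1 library was left out. The count of 8 was 5 without new AML replicate 2 and 4 without new AML replicate 4 or aggressive AML replicate 2. The 8 letters searched in synthetase promoters were found in 7 of 22 genes of this list with a promoter entry.

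Summed over the 20 cytosolic synthetases, the libraries had 3124, 3008, 3346 and 2936 CPM in new AML and 3544, 3726, 3270 and 3352 CPM in aggressive AML, and the groups overlapped. The 20 tested ATF4 targets summed to 2131, 1866, 2077 and 1792 CPM in new AML and 2314, 2843, 2066 and 2215 CPM in aggressive AML. In both lists aggressive AML replicate 2 was the highest library and new AML replicate 4 the lowest, while aggressive AML replicate 3 was the lowest of its group. Aggressive AML replicate 2 was the highest of its group for 15 of the 20 cytosolic enzymes, replicate 3 the lowest for 12, and new AML replicate 3 the highest of its group for 12. Aggressive AML replicate 3 also differed most from the other libraries of its group over all genes, with a chi-square per degree of freedom of 10.8 to 11.2 against 4.67 to 7.12 for the other pairs. The part of any shared library effect in these values was not tested.

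**Figure D5:**
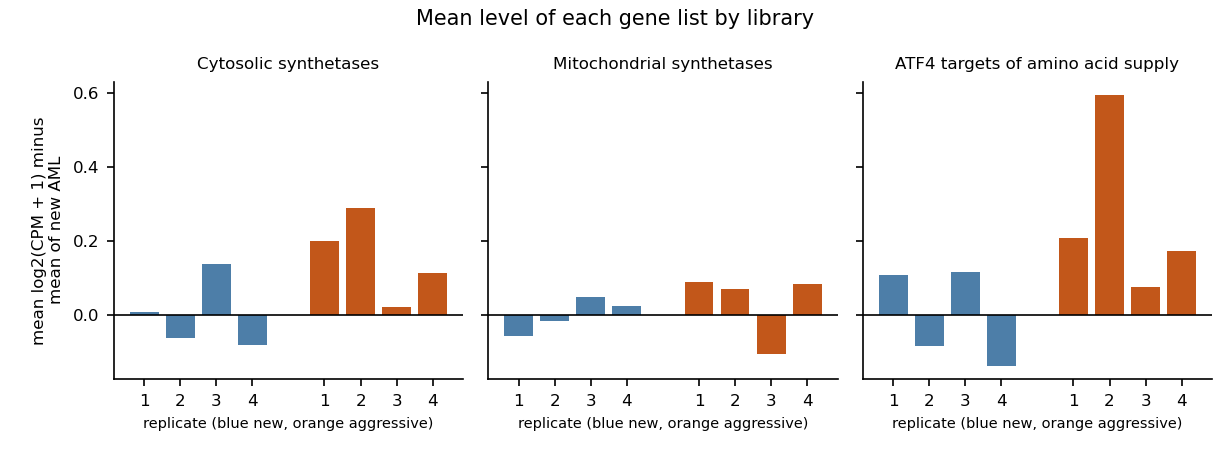
Mean log2(CPM + 1) of the cytosolic synthetases, the mitochondrial synthetases and the tested ATF4 targets in each library, minus the mean of the 4 new AML libraries (blue bars new AML, orange bars aggressive AML). Aggressive AML replicate 2 is the highest library for the cytosolic synthetases and for the ATF4 targets, and aggressive AML replicate 3 is the lowest of its group in all 3 lists.

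As group means, the cytosolic sum was 3104 ± 179 CPM (SD, n = 4) in new AML and 3473 ± 204 CPM (SD, n = 4) in aggressive AML. The 16 mitochondrial enzymes summed to 809 ± 107 CPM in new AML and 899 ± 60.5 CPM in aggressive AML (SD, n = 4 each). Without Lars2, the remaining 15 summed to 530.1 ± 16.3 and 556.4 ± 35.1 CPM. Lars2 thus carried most of the spread of the mitochondrial sum.

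Wars, the tryptophan enzyme, is known as a gene that interferon gamma induces in many cells. It had 76.8, 67.4, 75.3 and 71.2 CPM in new AML and 75.8, 78.8, 67.5 and 72.8 CPM in aggressive AML, with a log2 difference of 0.02 and an adjusted p of 0.886 by edgeR. Of 14 other genes of the interferon gamma response, 9 were lower in aggressive AML, where 10.2% of all genes tested were called lower, and the median difference was -0.53. Irf9 fell by 1.04 on the log2 scale from 102.5 CPM and Cd74 from 11.8 to 1.13 CPM. Tapbp (-0.53), B2m (-0.43) and Tap1 (-0.40), which serve antigen presentation, were lower on the log2 scale. Without aggressive AML replicate 2, 5 of the 14 were lower and the adjusted p of Tap1 was 0.0526 by edgeR. The Wars levels of the groups overlapped, and whether Wars differed from the rest of this list was not tested.

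Markers of the leukemia cells and of other cells differed between the groups as well. Of the 8 myeloid leukemia genes 2 were higher and 1 was lower, where 18.4% of all genes were called in either direction. Itgam had 445.0, 561.8, 392.9 and 579.0 CPM in new AML and 298.9, 316.8, 340.0 and 341.2 CPM in aggressive AML. Kit had 108.8, 111.1, 79.5 and 122.4 CPM and then 174.2, 138.9, 172.6 and 174.6 CPM. Of 10 neutrophil genes 8 were lower in aggressive AML, against 10.2% of all genes, and their summed level was 326.4 to 494.1 CPM in new AML and 166.3 to 218.8 CPM in aggressive AML. Of 6 tested erythroid genes 3 were lower (19.6 to 71.5 CPM against 7.89 to 27.7 CPM summed over the list), and of 2 macrophage genes 1 was lower. Lymphocyte genes did not follow these. Of the 2 tested T cell genes 1, Bcl11b, was higher, from 5.32 to 12.2 CPM (adjusted p = 0.0427 by edgeR), with overlapping groups and only 2.46 CPM in aggressive AML replicate 3. Nkg7, the 1 tested NK cell gene, rose from 14.9 to 24.1 CPM (adjusted p = 0.0225 by edgeR), also with overlap, and 8.15% of all genes were called higher. The 1 tested B cell gene, Cd79b, was not called. Of 14 proliferation genes 1, Mki67, was lower and none was higher, with a median difference of -0.0026. The part of any of these differences in the synthetase levels was not tested.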

How the data were processed

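The authors purified polyadenylated RNA, aligned paired reads to mm10 with HISAT2, counted reads per gene with Rsubread and removed genes of low CPM. What they deposited are whole-number read counts under a CPM name, with totals that differ by library, and these were used as counts. Annotation and strand setting are not given in the sources used here.

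Sample titles gave the groups and replicate numbers. A gene was tested if 4 or more of the 8 libraries had 1 CPM or more (12494 of 12823), comparing aggressive with new AML with the quasi-likelihood test of edgeR 4.0.16 (R 4.3.3), TMM scaling, group as the only term, two-sided p-values with Benjamini-Hochberg adjustment over all tested genes and a threshold of 0.05. The fit was tested on simulated data, in which small changes were mostly not called. A total of 7805544 to 9697777 counts made 1 count worth 0.103 to 0.130 CPM. The limit for 0 counts is 3 counts, for counting error only. Replicates differed beyond sampling noise in every pair (chi-square per degree of freedom 4.12 to 11.2).

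The members and all lists were chosen with earlier results of these data known, so lists are described by counts and medians without a test. Members past the threshold are given by library, members with an unadjusted p under 0.05 or no overlap by their statistics, and at most 6 called genes per pathway list by adjusted p, plus Atf4. Coordinates and promoters are from RefSeq (GRCm38.p6, all 36 members matched), and exon lengths and transcripts from GENCODE of the same build. Shared stretches were found with BLAST at 95% identity over at least 50 bases. Alternatives were RLE, upper-quartile and total scaling, DESeq2 1.42.0, limma 3.58.1 (trend on log2(CPM + 1), and voom), other filters, a replicate block and leaving out each library. A few items of these lists and promoters are not reported here.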

Additional observations from a re-analysis of the deposited data

Results flagged for a closer look

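In new AML, replicate 3 stood apart from the other 3 libraries for 4 synthetases by Dixon's criterion for a single distant value. It had 110 CPM of Farsb against 85.1 to 89.1 in the others, 217 CPM of Nars against 188 to 192, 136 CPM of Rars against 101 to 107 and 80.2 CPM of Tars2 against 67.8 to 69.0. Among 72 groups of 4 libraries screened, chance flags about 1 in 20, which is close to the 4 found, and all 4 fell on the same library. Without that library the log2 difference of Nars was 0.40 with an adjusted p of 0.0113 by edgeR.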

How the results depend on the processing

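Of 324 member values under the 9 alternatives that kept all libraries, 323 kept direction and side of the threshold. The exception was Cars2 in the fit with the replicate block, where its adjusted p was 0.0680 by edgeR and 0 mitochondrial enzymes were lower. Same-numbered libraries deviated together with correlations of -0.065 to 0.20, not all above 0.1, so the numbers were not taken as pairs. The block gave 2367 calls over all genes against 2296, and 2 higher genes of transfer RNA sensing. DESeq2 gave 3 higher genes of that list, and the limma test on log2(CPM + 1) gave 1 higher elongation gene. Alternatives for these lists and for the ratios were added after the data were seen.

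Leaving out 1 library at a time gave 1 to 5 higher cytosolic enzymes, 1 to 2 higher mitochondrial ones and 0 to 1 lower. It gave 1 to 3 higher elongation genes, 1 to 2 higher sensing genes, 4 to 10 higher ATF4 targets and 5 to 9 lower interferon genes. The medians were 0.09 to 0.18 (cytosolic) and 0.0093 to 0.12 (mitochondrial, lowest without aggressive AML replicate 2). Over all genes, 1466 to 2324 were called, the fewest without new AML replicate 2. Direction changed for some library in 9 members, none of them called. Their ranges were -0.074 to 0.16 for Cars, -0.0037 to 0.10 for Mars, -0.024 to 0.15 for Rars, -0.028 to 0.081 for Vars, -0.015 to 0.064 for Wars, -0.17 to 0.053 for Pars2, -0.088 to 0.013 for Rars2, -0.062 to 0.13 for Vars2 and -0.21 to 0.033 for Yars2. The causes were not tested. With 4 libraries a group, differences near the cytosolic median were smaller than 2 standard errors for each enzyme.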
